A study of Mus musculus with 60 samples.

Results

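The small heat shock protein genes Hspb1, Hspb2, Cryab, Hspb6, Hspb7 and Hspb8 were read by symbol in the poly-A gene tables of 5 mouse organs, where they are 6 of 55290 listed genes. They were selected on their fold changes and adjusted p-values in these tables, so those values are a description and carry no test of their own. The tables compare Ftsj1-deficient mice (labelled Ftsj1_DF) with wildtype mice (WT) in 5 whole organs, namely spleen, liver, kidney, heart and brain, with 3 mice against 3 in each organ. Ftsj1 encodes an enzyme that methylates ribose in the anticodon loop of tRNAs. All 6 mice were untreated males aged 4 months, fed freely, and comprised a set of 4 brothers and a set of 2, each with both genotypes. The labels do not give the allele or the strain background. Each organ of each mouse gave 1 poly-A library, so each table rests on 6 libraries, and the tables hold the mean level over these 6 with a fold change and its standard error, not the value of each mouse.

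Small heat shock proteins are chaperones that work without ATP. They share a conserved alpha-crystallin domain, assemble into oligomers, and hold unfolding proteins in a form that ATP-driven chaperones can refold or that can be passed to degradation. Several members are best known from heart and other muscle, where they bind desmin, filamin, titin or actin, and mutations in human members cause myopathies, neuropathies and cataract. Transcription of some members, such as Hspb1 and Cryab, can be raised by heat shock factors.

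Ftsj1 mRNA stood in the authors' deposited tables at between 8.79% (liver) and 15.4% (brain) of its wildtype level. Organ identity followed the labels: Slc1a2 was highest in brain, Myh6 and Tnnt2 in heart, Umod and Slc34a1 in kidney, Alb and Cps1 in liver, and Cd79a and Cd3e in spleen. Depth per library is unknown, but ratios of size factors could be recovered from the lowest mean levels. The deepest library exceeded the shallowest 2.14-fold in spleen and 18.0-fold in kidney, with the other organs between. Among genes at a mean level of at least 10, the median log2 fold change lay between -0.0019 (heart) and 0.019 (spleen).

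All 6 genes had their highest level in heart. Levels are given here in ppm, parts per 1000000 of an organ's summed mean level, which is a share of that organ's polyadenylated RNA. Together the 6 genes made up 3707 ppm in heart, against 160 in liver, 132 in kidney, 122 in brain and 32.4 in spleen. Mitochondrially encoded transcripts took 29.3% of the heart total and 3.29% of the spleen total, and leaving them out kept the order of organs for every member. Because organs are mixtures of cells, fewer cells of a type and less RNA per cell cannot be told apart.

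**Figure D1:**
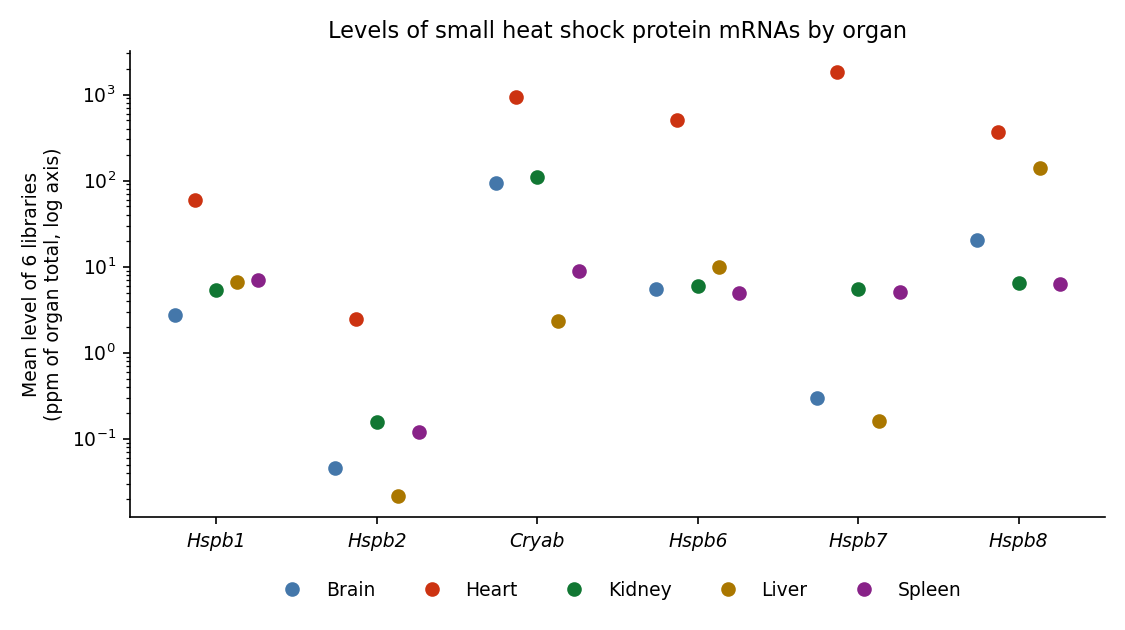
Mean level of each small heat shock protein mRNA over the 6 poly-A libraries of an organ, in ppm of the organ's summed level, on a log axis, with 1 point for each organ and no error bar because the tables hold no value per library. The heart point is the highest for every gene, and the liver point of Hspb8 (140.5) lies nearest to its heart point (370).

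The steepness of this heart preference differed between members, as the plot of levels by organ shows. Hspb7, a cardiac and muscle member that binds filamin C, stood at 1828 ppm in heart, 5.43 in kidney, 5.10 in spleen, 0.296 in brain and 0.161 in liver. It was therefore 337-fold lower in kidney than in heart and 6172-fold lower in brain. Hspb6, a target of cyclic nucleotide-dependent kinases in smooth and cardiac muscle, stood at 505 ppm in heart and between 4.99 (spleen) and 9.98 (liver) elsewhere. Hspb2, a partner of myotonic dystrophy protein kinase, had the lowest level of the 6 in every organ, at 2.48 ppm in heart and 0.0215 in liver.

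Cryab, which encodes alpha-B crystallin, a lens and muscle chaperone of desmin, was the member with a high level also in brain and kidney. It reached 942 ppm in heart, 109 in kidney and 93.2 in brain, and 8.91 in spleen and 2.30 in liver. Hspb8, whose protein binds the co-chaperone Bag3 and delivers clients to autophagy, followed another order, with 370 ppm in heart, 140.5 in liver, 20.3 in brain, 6.48 in kidney and 6.23 in spleen. Its liver level was 2.63-fold below its heart level, whereas the liver level of Cryab was 409-fold below. Hspb1, an actin-binding member present in most tissues, stood at 59.5 ppm in heart and between 2.70 (brain) and 7.02 (spleen) in the other organs. The tables give no spread of a level among mice, so neighbouring organs in these orders, such as kidney and spleen for Hspb8, cannot be separated.

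Levels of different members can be set beside each other after division by transcript length, for which the longest coding transcript of the GENCODE M21 annotation was used. On this scale of ppm per kilobase, Cryab led in heart at 844, followed by Hspb7 at 660, Hspb6 at 370, Hspb8 at 204, Hspb1 at 64.0 and Hspb2 at 3.21. Cryab also led in brain at 83.5 and in kidney at 97.4, and Hspb8 led in liver at 77.4. In spleen Cryab at 7.98 and Hspb1 at 7.55 lay close together. With the summed length of all exons instead, a choice made after seeing the data, Hspb7 (660) stood above Cryab (637) in heart and Hspb1 (6.81) above Cryab (6.02) in spleen, so these orders depend on the length used.

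Between the genotypes, 2 of the 6 genes passed the threshold used here, each in 1 organ and both upward: Hspb1 rose in spleen and Cryab rose in kidney. The threshold is a DESeq2 p adjusted by the Benjamini-Hochberg method, under 0.05, over the genes to which the authors' table gives an adjusted p, from 18263 in liver to 23313 in kidney. In spleen 1 of 6 members passed, where 0.0741% of all tested genes passed and 0.0479% passed upward. In kidney 1 of 6 passed, where 0.987% of all tested genes passed and 0.339% passed upward. In brain, heart and liver 0 members passed, with 0.0607%, 0.541% and 2.29% of all tested genes past the threshold. Since the members were chosen with these results known, nothing is read from their counts against those shares. Of the 30 combinations of gene and organ, 28 carried an adjusted p, and Hspb2 in brain and liver had none because of its low level.

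At an unadjusted DESeq2 p under 0.05 the counts of members were, in the order brain, heart, kidney, liver and spleen, 1 (Hspb1), 1 (Hspb2), 1 (Cryab), 0 and 2 (Hspb1 and Hspb7), where 2.34%, 5.71%, 3.99%, 6.63% and 4.7% of all genes with a p-value passed. The median log2 fold change of the 6 members was 0.45 in spleen and -0.29 in brain, and between 0.0078 and 0.034 in the remaining organs, beside medians of all tested genes between -0.0052 and 0.014. The brain median includes Hspb2, which has no adjusted p there, and was -0.041 over the 5 members that have one. In spleen 5 of the 6 members lay above 0. Whether any member's fold change differs between organs was not tested, because the same mice gave all 5 comparisons and no value per mouse is in the tables.

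**Figure D2:**
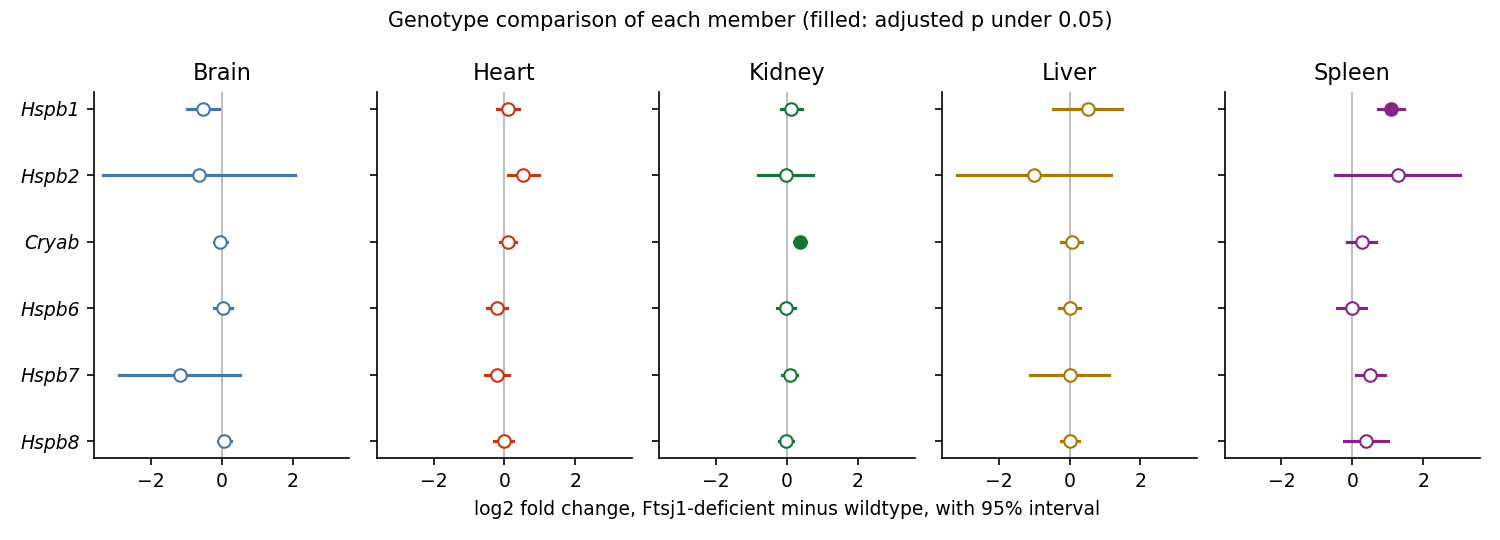
Log2 fold change of each small heat shock protein gene between Ftsj1-deficient and wildtype mice in each organ, with horizontal lines for 95% intervals from the authors' standard errors, and filled points for an adjusted p under 0.05. The filled points are Hspb1 in spleen (1.10) and Cryab in kidney (0.36), and the widest intervals belong to Hspb2 in brain, liver and spleen, where its mean level is 15.3 or less.

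Hspb1 had the largest fold change of the family that passed. The spleen mean level of 899 normalised counts and the fold change in the authors' deposited table correspond to about 573 in wildtype and 1225 in deficient spleen. The log2 fold change in the authors' deposited table was 1.10 ± 0.18 (SE, 3 mice against 3), with a 95% interval of 0.74 to 1.45, and DESeq2's adjusted p was 2.10e-05. This is a 2.14-fold difference with an interval of 1.67 to 2.74. By its p-value the gene ranked 2 in the spleen table, after Ftsj1. Its standard error was not unusual, being larger than that of 30.7% of the 3685 genes within 2-fold of its level.

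In the other organs Hspb1 did not pass. The authors' deposited tables gave log2 fold changes of 0.10 ± 0.16 in heart, where the gene is most abundant, and 0.12 ± 0.15 in kidney. The 95% intervals were -0.21 to 0.41 in heart and -0.17 to 0.42 in kidney, and their difference from spleen was not tested. In brain the authors' deposited value was -0.53 ± 0.23, with an unadjusted p of 0.0214 and a DESeq2 adjusted p of 0.9999, thus on the other side of 0 from spleen. In liver the authors' deposited value of 0.51 ± 0.50 had a standard error larger than that of 98.6% of the 4048 genes within 2-fold of its level, whose median was 0.154. The fit thus held more spread for Hspb1 in liver than for most genes of like abundance. The tables hold no value per mouse, so they do not show whether this spread lay in 1 mouse or in several.

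**Figure D3:**
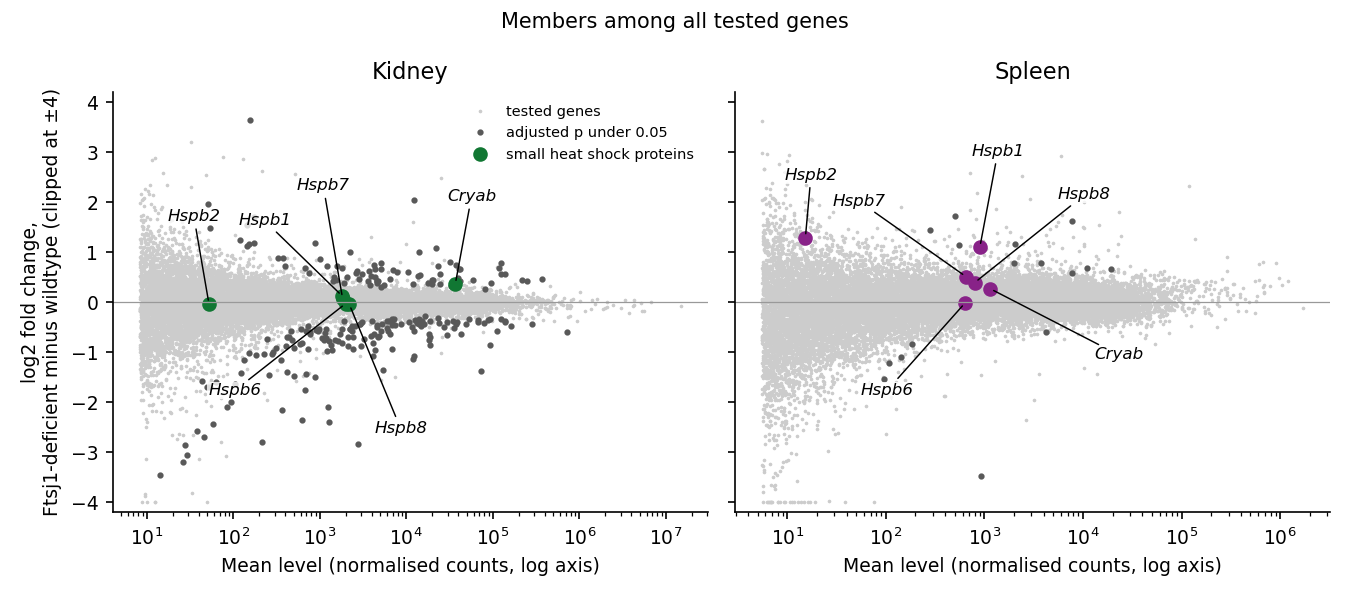
Log2 fold change of every tested gene against its mean level (normalised counts, log axis) in kidney and spleen, in light grey, with genes at an adjusted p under 0.05 in dark grey and the 6 small heat shock protein genes in colour; 5 spleen members lie above 0 and Hspb1 (1.10) among the called genes, and Cryab (0.36) is the member highest on the level axis in kidney.

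Part of the Hspb1 reads may be shared with a near-identical copy. Hsp25-ps1 is a processed pseudogene of Hspb1, and its annotated transcript of 630 bases aligned to the Hspb1 mRNA with 626 identical bases, or 99.4%. Of all 50-base windows of the longest Hspb1 transcript, 51.6% occur letter for letter in the pseudogene. The pseudogene's mean level was between 12.6% (brain) and 16.3% (heart) of that of Hspb1 in all 5 organs. Its log2 fold changes in the authors' deposited tables were 1.12 ± 0.35 in spleen, 0.51 ± 0.36 in liver, -0.037 ± 0.23 in kidney, 0.10 ± 0.21 in heart and -0.77 ± 0.54 in brain, and its DESeq2 adjusted p in spleen was 0.276. In each organ the interval of 1 standard error around the pseudogene's value held that of Hspb1. The sources used here do not say how counting treated reads that match both places, so the Hspb1 values are uncertain to the extent of these shared reads.

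**Figure D4:**
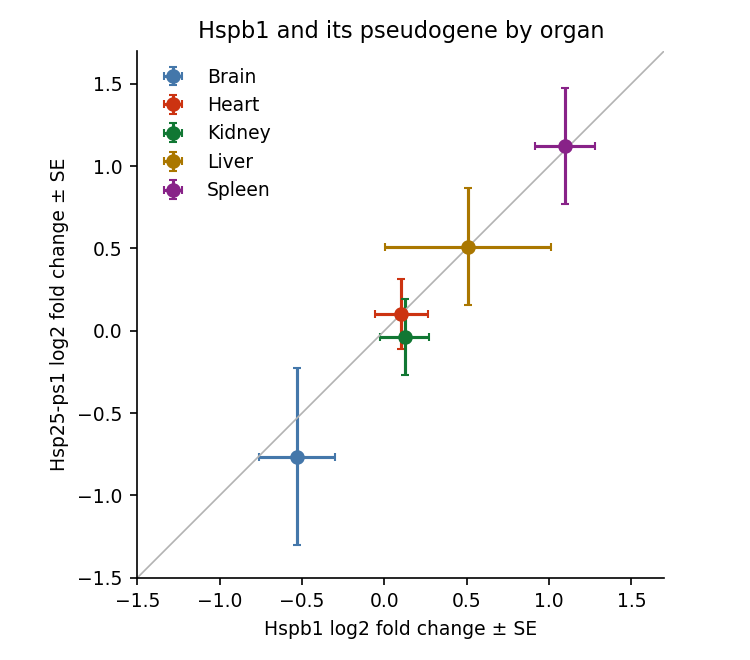
Log2 fold change (Ftsj1-deficient minus wildtype) of the pseudogene Hsp25-ps1 against that of Hspb1, 1 point for each organ with bars of 1 standard error in both directions and a grey line of equality. The spleen point (1.10 and 1.12) is the highest and the brain point (-0.53 and -0.77) the lowest; the 2 genes share near-identical sequence, so the points are not separate measurements.

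Heat shock factors bind inverted repeats of the unit GAA, and the promoters of the members were searched for such repeats. RefSeq promoters on GRCm38.p6, from 250 bases before to 50 bases after a start, were matched for 4 of the 6 members with 5 starts; Hspb2 and Cryab were not matched. The motif letters were GAANNTTC or TTCNNGAA, each of which reads the same on both strands. The bases before the start are shown for Hspb1 (chr5:135887669-135887918, plus strand), for the downstream start of Hspb6 (chr7:30553051-30553300, plus strand) and for Hspb7 (chr4:141420529-141420778, plus strand), because the first of these genes rose in spleen, the next carries the same motif and did not pass, and the last has the strongest heart preference and no match. Capitals mark matches to the pair of units and, in Hspb6, the letters TATAAA.
Hspb1: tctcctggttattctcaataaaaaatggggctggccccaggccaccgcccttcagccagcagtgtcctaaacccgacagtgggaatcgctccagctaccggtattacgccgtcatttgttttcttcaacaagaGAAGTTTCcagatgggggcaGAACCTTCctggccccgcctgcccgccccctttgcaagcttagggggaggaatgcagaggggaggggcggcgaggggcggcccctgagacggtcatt
Hspb6: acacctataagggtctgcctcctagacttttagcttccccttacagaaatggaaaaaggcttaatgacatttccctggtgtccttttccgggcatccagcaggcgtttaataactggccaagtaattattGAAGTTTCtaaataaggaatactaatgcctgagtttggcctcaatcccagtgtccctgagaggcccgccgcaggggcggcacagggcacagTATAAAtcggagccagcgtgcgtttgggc
Hspb7: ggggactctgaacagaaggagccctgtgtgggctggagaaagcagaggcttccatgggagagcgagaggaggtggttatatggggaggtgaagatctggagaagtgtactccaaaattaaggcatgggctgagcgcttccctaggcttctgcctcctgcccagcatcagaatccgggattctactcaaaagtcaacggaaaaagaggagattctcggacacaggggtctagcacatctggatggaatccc
The Hspb1 promoter held 2 pairs, GAAGTTTC at positions -117 to -110 and GAACCTTC at -97 to -90, counted back from the start. The same 8 letters as in the first of these lay at -120 to -113 of the Hspb6 start, and at 3 to 10 after the start of Hspb8. Of all 32851 promoters, 15.1% held such a pair in the whole window and 12.8% before the start. By gene, 3 of the 4 members held a pair in the whole window and 2 before the start, where 17.0% and 14.5% of all 27025 genes did. In the whole window, a run of 3 alternating units was found in 0 of the 4 members and in 0.662% of all genes. The CArG box, the motif of serum response factor, was found in 0 of the 4 and in 1.81% of all genes. In the authors' deposited table the spleen value was 1.10 ± 0.18 for Hspb1, with 2 pairs before its start, and -0.012 ± 0.21 for Hspb6, with 1. The part of these motifs in the values was not tested.

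Cryab rose in kidney by a smaller fold at a far higher level. Its mean level of 36753 normalised counts and the fold change in the authors' deposited table correspond to about 32236 in wildtype and 41270 in deficient kidney. The log2 fold change in the authors' deposited table was 0.36 ± 0.088 (SE, 3 mice against 3), with a 95% interval of 0.18 to 0.53, and the DESeq2 adjusted p was 0.00857. This is a 1.28-fold difference with an interval of 1.14 to 1.44, and the gene ranked 140 by p in the kidney table. In heart, where Cryab mRNA was most abundant, the authors' deposited value was 0.093 ± 0.12, with a 95% interval of -0.13 to 0.32 that overlaps the kidney interval. The remaining values in the authors' deposited tables were -0.041 ± 0.093 in brain, 0.054 ± 0.15 in liver and 0.27 ± 0.21 in spleen, none of which passed.

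Within the kidney, Cryab mRNA is known from the medulla, so markers of kidney segments were read beside it. In kidney 0.987% of all tested genes passed, and 3.99% of genes with a p-value had an unadjusted DESeq2 p under 0.05. In a list of 5 or 7 genes a count of 0 is near those shares. Nothing about segments is read from the counts below. Of 7 collecting duct markers 0 passed and 0 had an unadjusted DESeq2 p under 0.05, with a median log2 fold change of 0.026 and the smallest p for Aqp3, an exit channel for water (-0.11 ± 0.11 in the authors' deposited table). Summed over that list, the implied level was 1.04-fold that of wildtype. Of 5 markers of the loop of Henle 0 passed, 1 had an unadjusted p under 0.05 and 4 lay above 0, with a median of 0.12 and an implied summed level 1.06-fold that of wildtype. Slc12a1, the gene of the salt transporter of the thick ascending limb, had 0.12 ± 0.084 in the authors' deposited table. Of 5 proximal tubule markers 0 passed and 1 had an unadjusted p under 0.05, with a median of -0.056. Genes of the response to osmotic stress, to which the inner medulla is exposed, had 0 of 5 tested members past the threshold, with a kidney median of 0.15, and Akr1b3 and Slc5a3 were listed at 0 in every organ. Some genes from lists made for other tissues did pass in kidney in the authors' deposited table. From the bile duct list Spp1, the gene of osteopontin, rose by 0.44 ± 0.12 (DESeq2 adjusted p of 0.0169). Its mean level in kidney was 218746, and the bile duct list summed to 819 ppm in kidney against 48.3 in liver. Spp1 is thus a gene of high level in kidney itself, and it rose as Cryab did. Ttr and Serpina1a of the hepatocyte list had -1.14 ± 0.12 and -1.08 ± 0.16. Ryr2 of the cardiomyocyte list had -0.82 ± 0.14. Of 6 hepatocyte markers 5 lay below 0 in kidney, with a median of -0.81. The part of segment composition in the Cryab result was not tested.

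Hspb2 lies head to head with Cryab, and in the annotation the exons of the pair overlap by 252 bases on opposite strands. The libraries were stranded, but the sources used here do not say whether counting used the strand. The mean level of Hspb2 was between 0.0485% (brain) and 1.34% (spleen) of that of Cryab. Its value in kidney, where Cryab rose, was -0.040 ± 0.40 in the authors' deposited table. In heart the authors' deposited value was 0.54 ± 0.22, with a 95% interval of 0.10 to 0.98, an unadjusted p of 0.0158 and a DESeq2 adjusted p of 0.410, at a mean level of 351. In spleen it was 1.29 ± 0.90 at a mean level of 15.3, a larger value than that of Hspb1 with an interval of -0.48 to 3.05. In brain and liver the authors' deposited values, -0.65 ± 1.38 and -1.004 ± 1.11, rest on mean levels of 10.2 and 5.15.

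Hspb7 did not pass in any organ. The authors' deposited spleen value was 0.51 ± 0.21, with a 95% interval of 0.094 to 0.93, an unadjusted p of 0.0163 and a DESeq2 adjusted p of 0.632, corresponding to about 538 in wildtype and 766 in deficient spleen. In heart, with a mean level of 258107 and 99.9% of detected genes below it, the authors' deposited value was -0.21 ± 0.17. It was 0.072 ± 0.11 in kidney in the authors' deposited table. In brain and liver, where the mean levels were 66.9 and 38.5, the authors' deposited values of -1.19 ± 0.87 and -0.0029 ± 0.57 leave wide intervals.

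Hspb6 and Hspb8 did not pass in any organ either. For Hspb6 the authors' deposited values lay between -0.21 ± 0.15 in heart and 0.034 ± 0.12 in brain, and for Hspb8 between -0.038 ± 0.099 in kidney and 0.39 ± 0.32 in spleen. The liver value of Hspb8, at a mean level of 33658, was 0.0072 ± 0.13 in the authors' deposited table, with a 95% interval of -0.24 to 0.25, which is a fold between 0.848 and 1.19. For Hspb6 in heart the interval was -0.49 to 0.079, and for Hspb8 in heart -0.29 to 0.24. Exons of Hspb6 overlap those of Proser3 by 122 bases and of Lin37 by 3 on the opposite strand, and those of the predicted gene Gm38670 by 77 on the same strand, so part of its count is uncertain.

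Of 5 further genes of the family, Hspb11 was the one with at least 61.7% of detected genes below it in every organ. Cryaa, the lens alpha-A crystallin, was listed at 0 in all 5 organs, as were the widely expressed Akr1b3 and Slc5a3, so this entry says nothing of its expression. Hspb3, which forms a complex with Hspb2 in muscle, stood at 5.87 ppm in heart with 0.18 ± 0.31 in the authors' deposited table. Hspb9 and Odf1, known from testis, stood at most at 0.258 and 0.0290 ppm. Hspb11, a ciliary transport protein once assigned to the family, stood between 2.47 (heart) and 8.17 (spleen) ppm, with values in the authors' deposited tables between -0.029 ± 0.18 in liver and 0.27 ± 0.26 in spleen. Of these 5 genes, 3 had an adjusted p in brain and in heart, 2 in kidney and in spleen and 1 in liver, and 0 of those passed or had an unadjusted DESeq2 p under 0.05. Hspb3 in kidney, with a mean level of 2.52 and no adjusted p, had -4.19 ± 2.04 and an unadjusted p of 0.0402 in the authors' deposited table.

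Lists of heat shock genes were read beside Hspb1 and Cryab. Between 0.0607% (brain) and 2.29% (liver) of all tested genes passed, so 0 passing genes in a short list is near that share. At an unadjusted DESeq2 p under 0.05 the shares were 2.34% (brain) to 6.63% (liver) of all genes with a p-value. Nothing about the heat shock response is read from these counts. Of 15 heat-inducible chaperone genes, 0 passed and 0 had an unadjusted DESeq2 p under 0.05 in any organ (14 were tested in liver), and their median log2 fold change was 0.078 in spleen, 0.077 in liver, 0.023 in kidney, 0.0078 in brain and -0.0028 in heart. In spleen Hspa1a and Hspa1b, the inducible cytosolic chaperones, had 0.76 ± 0.49 and 0.36 ± 0.34 in the authors' deposited table, and Dnajb1, a co-chaperone with the smallest p of the list, had -0.23 ± 0.14. In kidney Dnajb1 again had the smallest p, at -0.17 ± 0.12 in the authors' deposited table. Of 4 genes for heat shock factors and the binding protein Hsbp1, 0 passed in any organ and 1 had an unadjusted p under 0.05 (Hsf4 in spleen), with medians between 0.021 in brain and 0.22 in heart. Hsf1, the main stress-responsive factor, had 0.016 ± 0.12 in spleen and 0.099 ± 0.10 in kidney in the authors' deposited tables.

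Partners and clients of the family were read against the same shares of all genes. Of 7 genes of chaperone-assisted autophagy 0 passed in any organ and at most 2 (in heart) had an unadjusted DESeq2 p under 0.05. Among them Bag3, which binds Hspb8, had 0.24 ± 0.16 in spleen and -0.027 ± 0.12 in kidney in the authors' deposited tables. Of 10 cytoskeletal clients 0 passed in any organ (9 were tested in liver) and at most 3 (in spleen) had an unadjusted p under 0.05, and the spleen median was 0.14. Among them Ttn, the gene of titin, had the smallest spleen p at -0.58 ± 0.18 with a DESeq2 adjusted p of 0.262 in the authors' deposited table, and Des, the gene of desmin, had 0.45 ± 0.17 with an adjusted p of 0.520.

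Most smooth muscle markers lay above 0 in spleen, as did most members of the family and most genes of several other lists. Of 10 markers 0 passed, 9 lay above 0, and 4 had an unadjusted DESeq2 p under 0.05, with a median log2 fold change of 0.42 beside 0.014 for all tested genes. Tagln, the gene of transgelin, had the smallest p, with 0.71 ± 0.18 and a DESeq2 adjusted p of 0.0630 in the authors' deposited table, and Acta2, smooth muscle actin, had 0.40 ± 0.15. The implied summed level of the list was 62147 in wildtype and 76961 in deficient spleen, a ratio of 1.24, and none of the 10 was listed at 0. Over the same libraries the fold of Hspb1 was 2.14. Of 9 tested skeletal muscle markers 8 lay above 0 in spleen, 2 had an unadjusted p under 0.05 and 0 passed, with a median of 0.19 and a summed level of 16.2 ppm. Cardiomyocyte markers in spleen had a median of -0.051 and spleen lymphoid markers one of 0.016, with 0 passing in both lists and 1 and 0 at an unadjusted DESeq2 p under 0.05. Of 5 adipocyte markers 0 passed in spleen, 3 lay above 0 and 2 had an unadjusted DESeq2 p under 0.05, with a median of 0.31 and an implied summed level 1.52-fold that of wildtype. In spleen 12 of 15 heat-inducible genes, 5 of 7 autophagy partners and 7 of 10 cytoskeletal clients also lay above 0. So did 4 of 4 genes in the list of heat shock factors and the binding protein Hsbp1. Of these, Hsf1 (0.016) and Hsf2 (0.024) lay near the median of all tested genes. Of 5 tested osmotic response genes 2 lay above 0, as did 4 of 6 astrocyte and 3 of 5 oligodendrocyte markers. Among collecting duct markers 1 of 6 lay above 0, and 1 of 4 proximal tubule, 1 of 4 hepatocyte and 2 of 5 bile duct markers did. The share of all tested genes above 0 is not given here, so no general rise is read from these counts. Some of these lists share genes, such as Des among smooth muscle markers and cytoskeletal clients. The part of smooth muscle or fat content in the spleen values of Hspb1 and the other members was not tested. In heart the smooth muscle list went the other way, with 8 of 10 below 0, a median of -0.29, 2 at an unadjusted p under 0.05 and 0 passing by DESeq2. Of 8 cardiomyocyte markers 0 passed in heart and 0 had an unadjusted p under 0.05, with a median of -0.0094. The listed markers past the threshold in the organs where 0 members passed all fell: in the authors' deposited tables Reln and Lep had -0.56 ± 0.15 and -4.92 ± 0.85 in heart, and Cnp, Aqp4 and Cidec had -0.52 ± 0.14, -1.51 ± 0.23 and -0.75 ± 0.17 in liver.

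**Figure D5:**
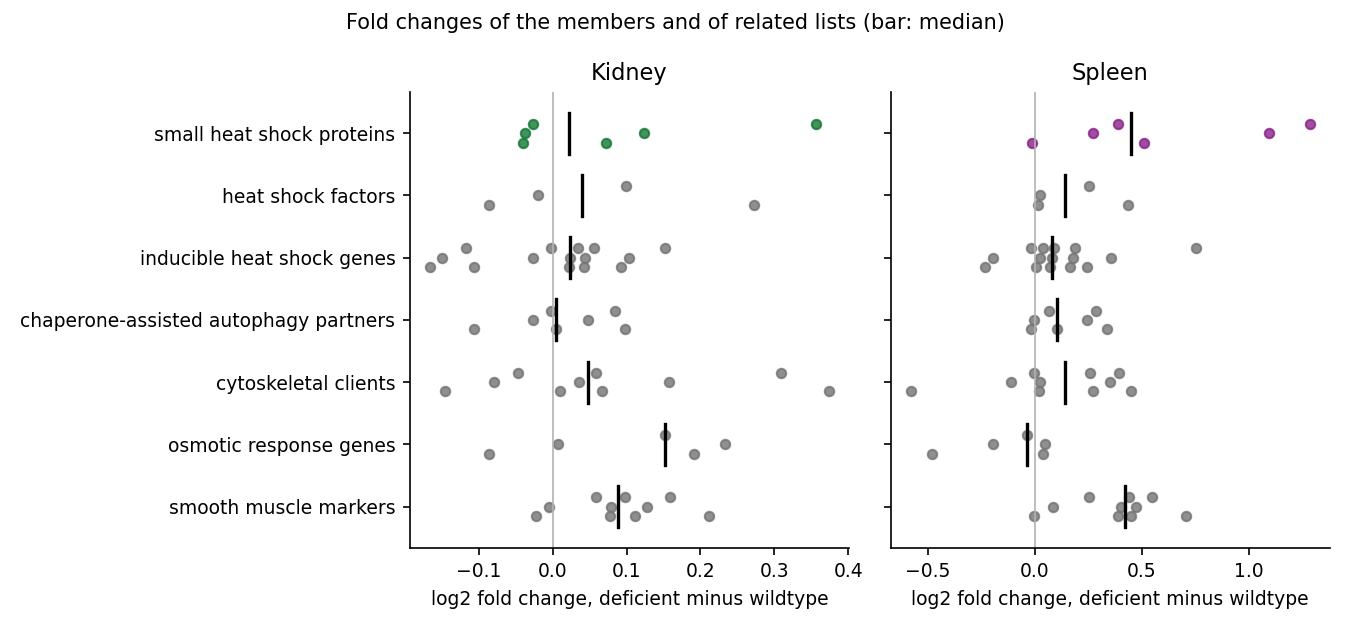
Log2 fold changes (Ftsj1-deficient minus wildtype) of the small heat shock protein genes, in colour, and of the genes of 6 related lists, in grey, in kidney and spleen, 1 point for each tested gene with a black bar at the list median; the horizontal scales of the panels differ. In spleen the bars of the small heat shock proteins (0.45) and the smooth muscle markers (0.42) stand to the right of those of the other lists, while in kidney the bar of the small heat shock proteins stands at 0.022.

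Each member was also compared with 26417 genes for the shape of its level over the 5 organs, as the Euclidean distance between centred log2(level in ppm + 1) profiles, in which a small distance means a like shape. The nearest profiles were those of Map3k20 (0.486) and Msrb3 (0.538) for Hspb1, Smyd1 (0.427) and Klhl31 (0.609) for Hspb6, and Gm45012 (0.121) and Mlana (0.148) for Hspb2. For Hspb7 they were Myom1 (1.73) and Ankrd1 (2.16), for Cryab Fhod3 (1.30) and Vldlr (1.64), and for Hspb8 Fxyd1 (1.40) and Palmd (1.98). Smyd1, Klhl31, Myom1, Ankrd1 and Fhod3 are genes of striated muscle, but Fhod3 also stood at 55.7 ppm in brain and 68.0 in kidney, beside 274 in heart. The other genes named, Map3k20, Msrb3, Gm45012, Mlana, Vldlr, Fxyd1 and Palmd, were not assigned to a tissue. No common cell type is read from the nearest profiles. These distances rest on 5 organ means that share libraries and scaling, and the added 1 ppm flattens the profile of a scarce gene such as Hspb2. In spleen the genes nearest to Hspb1 in profile had log2 fold changes of -0.0017 for Map3k20 and 0.37 for Msrb3 in the authors' deposited table, beside 1.10 for Hspb1.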

How the data were processed

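Poly-A RNA of whole organs was sequenced from stranded libraries, per the labels' protocols. DESeq2, featureCounts, Subread 2.0.3 and the build GRCm39 are named in the submitters' processing notes. Not given in the sources used here are the aligner's settings, the annotation and the handling of strand and of multiply placed reads. The 5 poly-A tables hold the authors' comparison of the genotypes. Per the file headers, the mean signal is DESeq2's mean of normalised counts over 6 libraries, the deposited log2 fold change has a standard error in log2 units, the authors' Wald score is their ratio, and the deposited p-value is given raw and adjusted by Benjamini-Hochberg over the genes to which the authors' tables give an adjusted p. The sign, Ftsj1-deficient minus wildtype, was read from Ftsj1 itself. A gene rose or fell when the adjusted p was under 0.05.

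No count model was fitted, since no value per library is in these tables, and depth per library is unknown. Implied group levels were computed from the mean level and the fold change for groups of equal size, and 95% intervals from the standard errors. Levels were scaled to ppm, parts per 1000000 of an organ's summed level. Computation used Python 3.11.15, pandas 2.3.3, numpy 2.4.6 and, for the pseudogene alignment, Biopython 1.88. Only the median centring and the Benjamini-Hochberg adjustment were tested on simulated data. Members and gene lists (19 lists, 125 genes) were chosen with earlier results of these data known. The genes named are the 6 members, the other family members, Ftsj1, the gene of smallest p of a described list, the listed genes past the threshold, the organ markers, and the 2 nearest level profiles of each member. Hspa1a, Hspa1b, Hsf1, Bag3, Des, Acta2, Akr1b3, Slc5a3, Slc12a1, Hsf4 and the genes whose exons overlap Hspb6 were added with their values known, and so was the pseudogene comparison. Transcript lengths, exon overlaps and pseudogene sequence came from GENCODE M21 on the earlier build GRCm38, without converting coordinates. Protein sequences and the rRNA-depleted libraries were not analysed here. Some results for single marker genes are not reported here. The labels name separate mice as replicates.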

Additional observations from a re-analysis of the deposited data

How the results depend on the processing

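The counts of members past the threshold, 0 in brain, heart and liver and 1 in kidney and spleen, stayed at those values with an adjusted p under 0.1, with p adjusted over all genes with a p-value, over genes at a mean level of at least 10 or over the 5 organs together, and with fold changes centred on the median. At an unadjusted p under 0.05 they became 1 in brain, 1 in heart and 2 in spleen, by construction of the looser rule. At an adjusted p under 0.1, smooth muscle markers past the threshold went from 0 to 1 in heart (Actg2) and from 0 to 1 in spleen (Tagln). Scaling levels to the upper quartile moved 6 of 30 places in the order of organs, all of them swaps of neighbouring organs: liver and spleen for Hspb1, and brain and liver for Hspb2 and Hspb7. Precision was lowest for Hspb2 in brain, liver and spleen and for Hspb7 in brain, at mean levels from 5.15 to 66.9; the cause was not tested. No paired analysis was possible because the tables hold no value per library; for the same reason no replicate could be left out, so it is not known whether 1 mouse decides the Hspb1 or the Cryab result.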
